A study of Mus musculus with 8 samples.

Results

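The alanine and leucine substitutions at lysine 36 of histone H3.3 were compared through 2 RNA-seq libraries, 1 from cells carrying H3.3 K36A and 1 from cells carrying H3.3 K36L, out of 8 libraries in the study. Genes entered if they averaged, over these 2 libraries, 1 or more above the table's lowest value, which kept 14047 of 31276 genes. Values are log2 values after a variance-stabilising transformation, a scale that shrinks the differences of genes with few reads. A gene is counted as different where K36A minus K36L is at least 1 in size on that scale. With 1 library a side no test is possible, so nothing here says whether a difference exceeds the spread between repeated cultures.

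The cells were C3H10T1/2, a multipotent mesenchymal line from C3H mouse embryos, grown in DMEM with 10% fetal bovine serum and taken at passages 10 to 15. Each line stably expressed a histone H3 transgene with a FLAG-HA tag. There were 6 lines with H3.3 (wild type, called WT, and K36A, K36L, K36R, K36M and K36I) and 2 with H3.1 (K36R and K36M), each with 1 library. Nothing in the sources used here says whether a line was a clone or a pool, how much of the tagged histone it made, or how much of the cells' own H3 remained beside it. In the text K36A, K36L, K36R, K36M, K36I and WT alone mean H3.3, and H3.1 is written out.

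Lysine 36 of histone H3 lies where the tail leaves the nucleosome, and its methylation marks transcribed gene bodies and broad stretches between genes. Enzymes of the NSD family and ASH1L lay down the lower methylation states and SETD2 the trimethyl state, and the mark hinders the Polycomb enzyme PRC2 from methylating lysine 27 of the same tail. Methionine or isoleucine at position 36 is known to inhibit these methyltransferases across the nucleus. Alanine and leucine remove the lysine too: alanine has only a methyl group as its side chain, and leucine a larger, branched hydrocarbon side chain that is close in size to those of methionine and isoleucine. Arginine keeps the positive charge.

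The K36A library held 64093436 reads assigned to genes and the K36L library 61840264, and the other 6 held 45448249 to 68020958. A value of 5.95 stands for 0 reads, and 6 reads, or 3 pairs, taken as the upper limit for a 0, are 9.36e-06% of K36A and 9.7e-06% of K36L. The filter lies at 30.97 normalised reads, which are reads scaled by the authors' size factor of each library. The 45S ribosomal RNA entry Rn45s took 5.24% of the reads of K36A, 3.11% of those of K36L and 1.66% to 2.19% of those of the other 6, and its part in the results was not tested. Intervals given beside ratios of normalised reads are 95% intervals for counting error only, computed on halved reads, as for pairs whose mates were counted singly, because 69.2% of the genes with 1 to 20 reads in K36A, and 67.5% in K36L, had an even number.

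K36A and K36L differed by at least 1 in 172 genes, 1.22% of those kept. Of these, 53 were higher in K36A (0.377%) and 119 lower (0.847%). The median difference over all kept genes was 5.94e-05, 93.7% of genes lay within 0.5 of 0, and 5 genes were higher and 9 lower by at least 2. Just inside the threshold lay Hgf at 1.02 and Mdfi at 1.02, and just outside it Cxcl12 at 0.99 and Etv1 at 0.97. On the other side Pard3b at -1.004 and Pi16 at -1.005 were counted, while Ly6f at -0.9996 and Plcl2 at -0.998 were not. Whether counting used strand is not given in the sources used here, and 9 of the 53 and 31 of the 119 have exons that overlap a gene on the opposite strand, whose reads cannot then be told apart. Of the genes described below these are Tmem47, Tnc, Pogk, Lcp1, Gcnt4, Slurp1, Fbn2, Eln, Notum, Mest, H19, Krt80, Ampd3 and Gas7.

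Among the 28 ways of pairing the 8 libraries, with the same filter applied to each pair, K36A and K36L had the second lowest number of different genes. WT and K36L had the fewest, 146, and K36M and K36I had 185. WT and K36A differed in 293 genes, K36L and K36R in 363, and K36A and K36R in 404. K36A and K36L each differed from K36M in far more, 1038 and 1141 genes. The pairs share libraries, so these counts are not independent of each other.

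**Figure D1:**
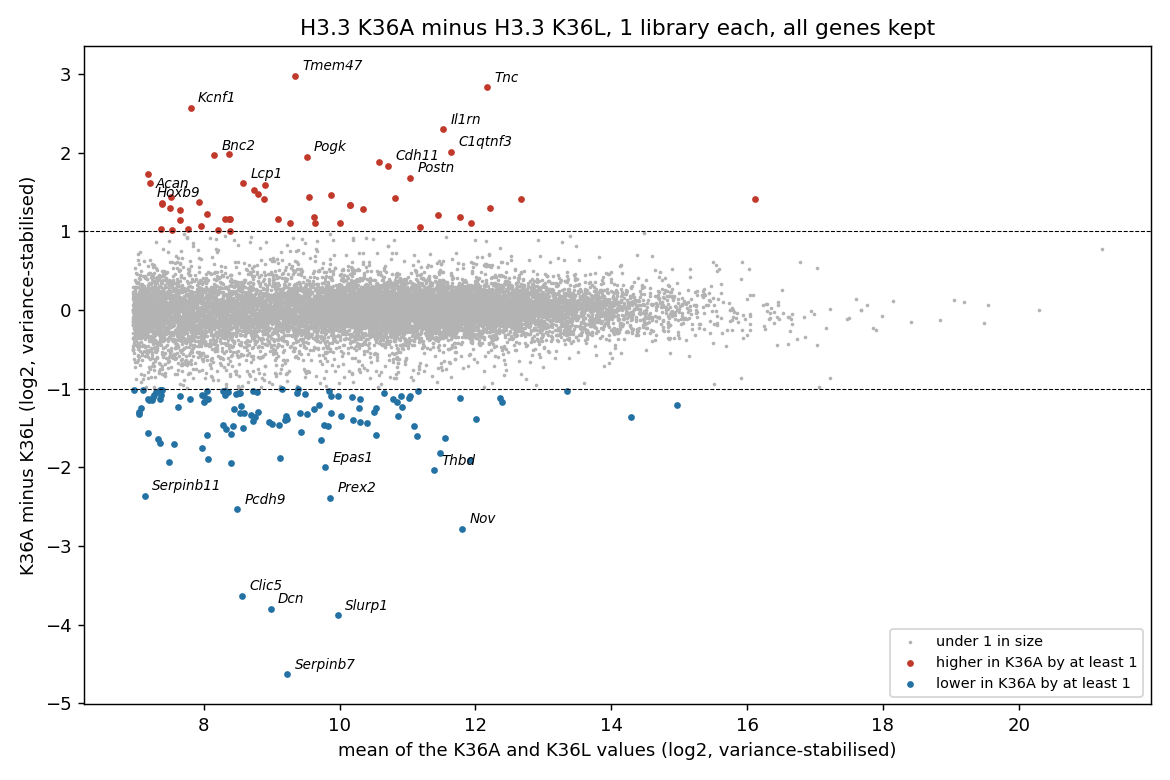
K36A minus K36L (vertical axis, log2 variance-stabilised units) against the mean of both values (horizontal axis, same scale) for the 14047 genes kept, with dashed lines at 1 and -1. The 53 genes higher in K36A reach 2.98 (Tmem47) and the 119 lower ones reach -4.63 (Serpinb7), while the bulk lies close to 0.

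A group of cartilage matrix genes was higher in K36A than in K36L. Of 18 chondrogenic genes kept, 3 were higher by at least 1 (Acan, Col9a1 and Hapln1) and 0 lower. Of all kept genes 0.377% were higher and 0.847% lower. Of the 18, 15 lay above 0 and the median difference was 0.53, against a median near 0 over all kept genes. Acan encodes aggrecan, the large proteoglycan of cartilage, Col9a1 a chain of type IX collagen, and Hapln1 the link protein that holds aggrecan on hyaluronan. In a bulk library, more cells of a type and more RNA per cell cannot be told apart.

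Acan (chromosome 7, 79053483 to 79115099, GENCODE M21 coordinates on GRCm38, which mm10 is) had 155 normalised reads in K36A and 3.90 in K36L, with 3.72 in WT, 1.91 in K36M, 3.40 in K36I, 5.26 in H3.1 K36M and 0 in K36R and H3.1 K36R. K36A alone stood above the level of a few reads, and the ratio to K36L was 39.8 (interval 10.7 to 334). Col9a1 (chromosome 1, 24177610 to 24252684) had 10553 normalised reads in K36A, 3899 in K36L and 4087 in H3.1 K36R, against 869.9 in WT, 652 in K36R, 459 in K36M, 552 in K36I and 709.7 in H3.1 K36M. Hapln1 had 201 in K36A, 35.1 in K36L and between 0 and 53.2 in the other 6. K36A was the highest of the 8 libraries for all 3 genes, and K36L was within the range of the other 6 for each of them. The remaining type IX chains were higher by less, Col9a3 by 0.91 and Col9a2 by 0.74. Sox9, the transcription factor that switches on cartilage genes, differed by 0.20, and Col2a1, the main cartilage collagen, by 0.52.

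The promoters of Acan and Col9a1 are shown because these cartilage genes shared the direction and lie on promoters of opposite make-up. The sequences run 5′ to 3′ from 250 bases before the RefSeq start site to 50 after it on GRCm38.p6, at chr7:79052976-79053275 and chr1:24177360-24177659, both on the plus strand. Capitals mark CG dinucleotides, of which the Acan window holds 31 and the Col9a1 window 0. A second RefSeq start of Col9a1 has a window with 1 CG.
Acan: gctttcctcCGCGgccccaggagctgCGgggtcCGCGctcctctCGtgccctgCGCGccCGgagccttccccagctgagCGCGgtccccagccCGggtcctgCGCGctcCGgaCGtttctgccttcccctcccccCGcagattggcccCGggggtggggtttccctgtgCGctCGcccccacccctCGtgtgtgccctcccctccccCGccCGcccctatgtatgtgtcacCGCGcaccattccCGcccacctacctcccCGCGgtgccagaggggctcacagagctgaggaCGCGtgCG
Col9a1: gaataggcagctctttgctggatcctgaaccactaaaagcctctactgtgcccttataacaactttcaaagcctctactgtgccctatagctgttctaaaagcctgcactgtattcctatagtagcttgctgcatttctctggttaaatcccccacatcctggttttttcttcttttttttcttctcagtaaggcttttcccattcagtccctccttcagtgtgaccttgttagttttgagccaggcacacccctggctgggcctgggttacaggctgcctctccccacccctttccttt

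Extracellular matrix outside cartilage split in direction. Of 20 collagen genes kept, 1 was higher by at least 1 (Col27a1, a fibrillar collagen found in cartilage, 1.18), 0 were lower, and the median was 0.29. The largest differences downwards were Col3a1 at -0.97 and Col14a1 at -0.95. Tnc encodes tenascin-C, a large glycoprotein of remodelling matrix (chromosome 4, 63959785 to 64047015, minus strand). It had 12243 normalised reads in K36A and 1609.6 in K36L, with 6225 in WT, 9079 in K36R, 2466 in K36M, 3556 in K36I, 6066 in H3.1 K36R and 3127 in H3.1 K36M. K36A was the highest and K36L the lowest of the 8, 2.84 apart, with a ratio of 7.61 (7.07 to 8.19).

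Postn, which encodes the matrix protein periostin, and Cdh11, the mesenchymal cadherin-11, were also lowest in K36L. Postn had 3649 normalised reads in K36A and 1055 in K36L, with 1866 in WT, 7430.4 in K36R, 2216 in K36M, 2705 in K36I, 31525 in H3.1 K36R and 35468 in H3.1 K36M. Cdh11 had 3059 in K36A and 772 in K36L, with 4083 in WT and 11640 to 37301 in the other 5. The difference for Cdh11, 1.84, thus separated libraries that were the lowest and second lowest of 8. Cdh11 was the only gene in which K36L lay below all 7 other libraries by at least 1 (0.00712% of genes kept).

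Dcn showed the opposite pattern. It encodes decorin, a small leucine-rich proteoglycan that binds collagen fibrils (chromosome 10, 97479609 to 97518143). Dcn had 40.2 normalised reads in K36A and 1764.5 in K36L, with 1152 in WT, 2144 in K36R, 426 in K36M, 123 in K36I, 295 in H3.1 K36R and 129 in H3.1 K36M. K36A was the lowest library and K36L sat beside WT and K36R, at a ratio of 43.9 in favour of K36L (28.5 to 71.2). Of 9 such proteoglycans kept, Dcn was the only 1 past the threshold, and the median of the 9 was 0.23, with Aspn (asporin) at 0.90.

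Some elastic fibre genes were lower in K36A. Of 19 kept, 3 were lower by at least 1 and 0 higher (0.847% and 0.377% of all kept genes). Of the 19, 15 lay below 0, and the median was -0.15. The 3 were not chosen beforehand. These 3 were Fbn2 (fibrillin-2, -1.81), Eln (elastin, the core of the fibre, -1.24) and Efemp1 (fibulin-3, -1.09). Eln had 1137 normalised reads in K36A and 2838 in K36L, below 7794 in WT and 15057 in K36R and above 30.5 in K36M, 10.2 in K36I and 6.57 in H3.1 K36M. H3.1 K36R, at 3220, was next above K36L. Both substitutions lay between the WT and arginine libraries and the methionine and isoleucine ones, with K36A below K36L. Efemp1 did not share this order: it had 1192 in K36A and 2673 in K36L, with 794 in WT, 175 in K36R, 2677 in K36M and 18638 in K36I.

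Other genes higher in K36A had unrelated roles. Tmem47, a membrane protein of cell junctions, had the largest difference, 2.98. It had 1706 normalised reads in K36A and 125 in K36L, with 197 in WT, 838 in K36R, 3113 in K36M, 2732.5 in K36I, 1762 in H3.1 K36R and 4842 in H3.1 K36M. K36L was the lowest of 8 and K36A the fifth highest, at 13.7 times the reads of K36L (10.6 to 17.9). Kcnf1, a modulatory subunit of voltage-gated potassium channels, had 429 in K36A against 9.74 in K36L and 26.0 in WT, while the other 5 held 171 to 813. Its reads in K36A were 44.0 times those in K36L (18.6 to 137).

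Il1rn encodes the secreted antagonist of the interleukin-1 receptor. It had 6417 normalised reads in K36A and 1209 in K36L, with 5545 in WT, 3677 in K36R, 471 in K36M, 239.9 in K36I, 31168 in H3.1 K36R and 643 in H3.1 K36M. K36L lay between the WT and K36R values and those of K36M and K36I. C1qtnf3, a secreted protein of the C1q and TNF related family, had 6272 in K36A, 1463 in K36L, 1268 in WT, 2593 in K36R, 505 in H3.1 K36R, and 11.5 to 18.4 in the 3 libraries with K36M or K36I. K36A was the highest of 8 at 4.29 times K36L (3.96 to 4.65).

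Hoxb9, a homeobox gene of posterior identity, had 149 normalised reads in K36A and 5.85 in K36L, with 1.86 in WT, 1.90 in K36R, 0 in H3.1 K36R, and 1191 in K36M, 325 in K36I and 1149 in H3.1 K36M. Of 9 Hox genes kept it alone passed the threshold (1.62), and the median of the 9 was 0.15. Pdgfb, a growth factor of mesenchymal cells, was highest of 8 in K36A (1110.1 against 337 in K36L, a difference of 1.44). The remaining genes among the 15 largest were Bnc2 (1.97), Pogk (1.95), Lcp1 (1.62), Gcnt4 (1.59) and Rab11fip4 (1.47).

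**Figure D2:**
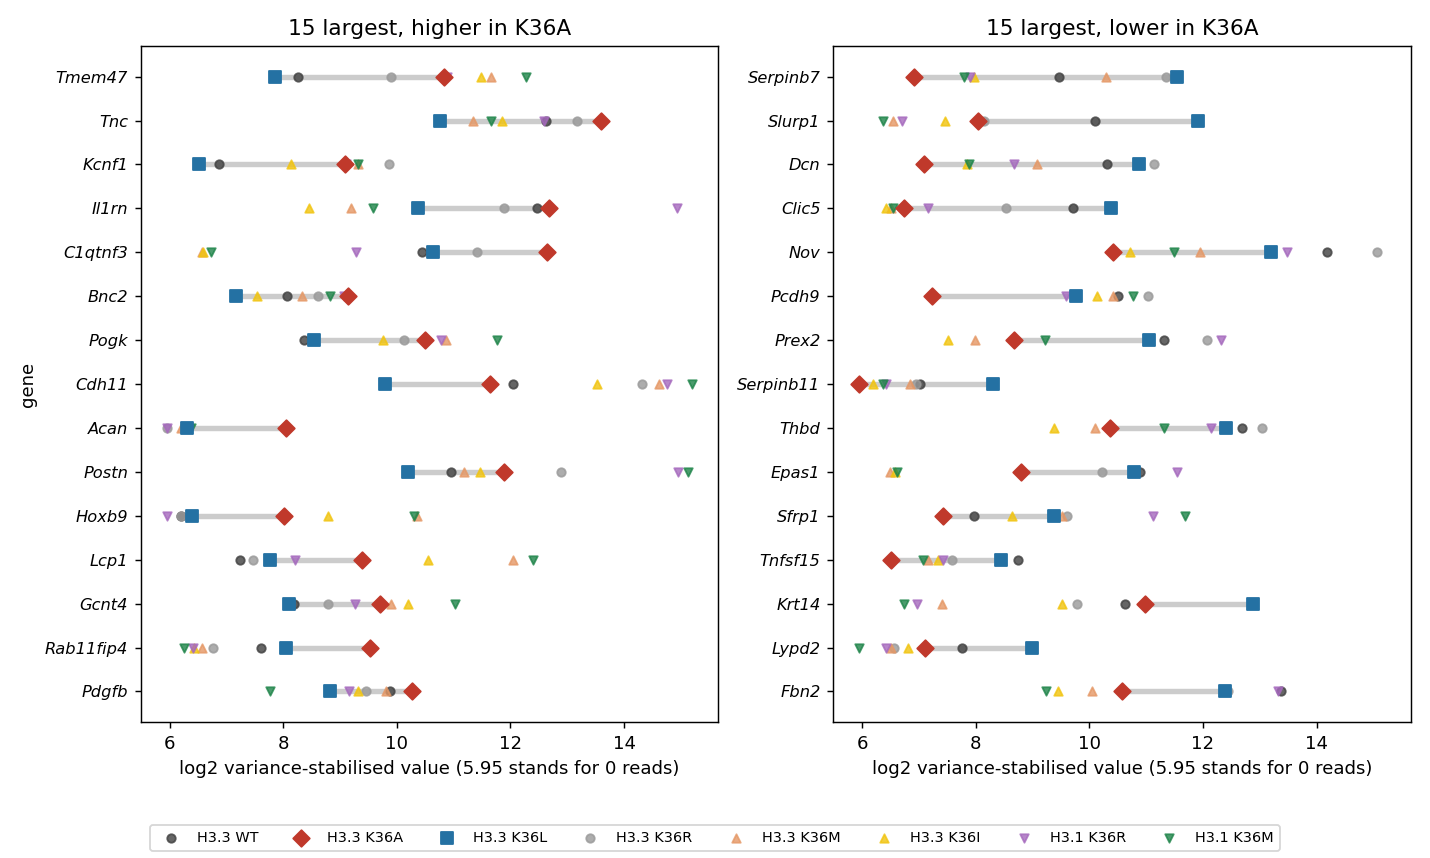
Log2 variance-stabilised value (horizontal axis, 5.95 stands for 0 reads) of the 15 genes with the largest differences in each direction (rows) in each of the 8 libraries, with K36A as red diamonds, K36L as blue squares and a grey bar joining them. K36A and K36L are the outermost points for genes such as Tnc, at 13.59 and 10.76, and Serpinb7, at 6.92 and 11.55, whereas for Cdh11 the other 6 libraries all lie above both.

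Several genes known from epidermis were lower in K36A than in K36L, led by Serpinb7, which had the largest difference of all, -4.63. Serpinb7 encodes a serine protease inhibitor known from skin (chromosome 1, 107399655 to 107452689). It had 28.7 normalised reads in K36A and 2869 in K36L, with 589 in WT, 2499 in K36R, 1133 in K36M, 141 in K36I, 130.1 in H3.1 K36R and 116 in H3.1 K36M. K36A was the lowest and K36L the highest of 8, and K36L held 99.9 times the reads of K36A (60.3 to 179). Its neighbour Serpinb11, 19180 bases away, had 0 reads in K36A and 206 normalised reads in K36L, which makes it at least 35.8-fold higher in K36L when 6 reads (3 pairs) are taken for the 0, and the counting interval of the ratio starts at 28.6. The other 6 libraries held 1.70 to 35.3 of Serpinb11.

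Slurp1 encodes a small secreted protein of the Ly6 type that is made in skin. It had 153 normalised reads in K36A and 3742 in K36L, with 971 in WT, 174 in K36R, 10.5 in K36M, 74.0 in K36I, 17.5 in H3.1 K36R and 5.26 in H3.1 K36M. Here K36L stood above every other library and K36A was level with K36R. Krt14, the keratin of basal epidermal cells, had 1889.8 in K36A and 7403 in K36L, with 1462 in WT, 764 in K36R, 613 in K36I, 67.8 in K36M, 31.7 in H3.1 K36R and 18.4 in H3.1 K36M. Mal, a proteolipid of membrane sorting, also stood apart in K36L, at 32034 normalised reads against 12403 in K36A and 187 to 11791 in the other 6.

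Of 8 keratin and cornified envelope genes kept, 2 were lower in K36A by at least 1 and 0 higher (0.847% and 0.377% of all kept genes). These 2 were Krt14 (-1.90) and Krt80 (-1.02). The median of the 8 was -0.46 (-0.76 on log2 of normalised reads plus 10). Krt42, a keratin gene outside that list and 55334 bases from Krt14, was higher in K36A (1.23), with 292 normalised reads against 72.1 in K36L and 0 to 51.3 in the other 6. Several epithelial markers were at or near 0: Epcam had 0 reads in K36A and in K36L, and Krt5 had 0 in K36A and 7.79 normalised reads in K36L. Of the 12 epithelial markers, 3 passed the filter. Their summed level was 2721 normalised reads in K36A and 7894 in K36L, a sum carried by Krt14, while Cdh1, which encodes E-cadherin, had 787 in K36A and 434 in K36L.

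The start region of Serpinb7 that RefSeq gives, at chr1:107422439-107422738 on the plus strand, lies inside the GENCODE gene, and it is shown for the contrast with Acan. It holds 0 CG dinucleotides, 2 matches to TATAAA and 1 to TGANTCA, the AP-1 motif, counted on both strands. Of 2 RefSeq windows of Ly6c1, a gene of the cluster described next, the 1 shown, at chr15:75048788-75049087 on the minus strand, holds 1 CG and 1 TATAAA, and the other holds 0 of both. Capitals again mark CG dinucleotides.
Serpinb7: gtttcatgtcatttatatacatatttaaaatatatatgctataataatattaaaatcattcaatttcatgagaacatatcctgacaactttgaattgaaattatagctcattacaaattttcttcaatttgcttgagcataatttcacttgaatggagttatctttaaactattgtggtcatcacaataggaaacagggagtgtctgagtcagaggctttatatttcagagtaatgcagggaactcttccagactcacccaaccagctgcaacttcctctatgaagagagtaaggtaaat
Ly6c1: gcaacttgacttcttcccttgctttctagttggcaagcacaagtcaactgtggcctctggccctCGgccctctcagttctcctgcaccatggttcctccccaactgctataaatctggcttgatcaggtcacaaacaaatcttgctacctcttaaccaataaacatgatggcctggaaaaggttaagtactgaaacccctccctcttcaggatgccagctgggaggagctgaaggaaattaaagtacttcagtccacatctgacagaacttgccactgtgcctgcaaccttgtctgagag

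Slurp1 lies in the Ly6 cluster on chromosome 15, a run of related genes for small surface and secreted proteins. From Arc (start 74669083) to Ly6c2 (end 75111970), 12 genes were kept, all 12 had differences below 0, and 6 were lower in K36A by at least 1. These were Slurp1 (-3.88), Lypd2 (-1.89), Ly6c1 (-1.62), Ly6a (-1.21), Ly6c2 (-1.14) and Ly6i (-1.08), and Ly6e, at -0.02, was nearest to 0. Ly6a encodes Sca-1, a surface antigen of mesenchymal progenitors, and Ly6c1 and Ly6c2 encode Ly6C. Ly6a had 20917 normalised reads in K36A and 48554 in K36L, with 20005 to 33892 in the other 6.

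The lines that stood apart differed along the cluster. For Ly6a, Ly6i, Slurp1 and Lypd2 K36L was the highest of 8. For Ly6c1, Ly6c2 and Ly6i K36A was the lowest of 8: Ly6c1 had 1586 normalised reads in K36A, 5127 in K36L, 3463 in WT and 3427 in K36R. Ly6c1 and Ly6c2 are near-identical copies, so reads may have been split or shared between them, and their values are uncertain. As neighbours, the 12 genes are not independent observations.

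**Figure D3:**
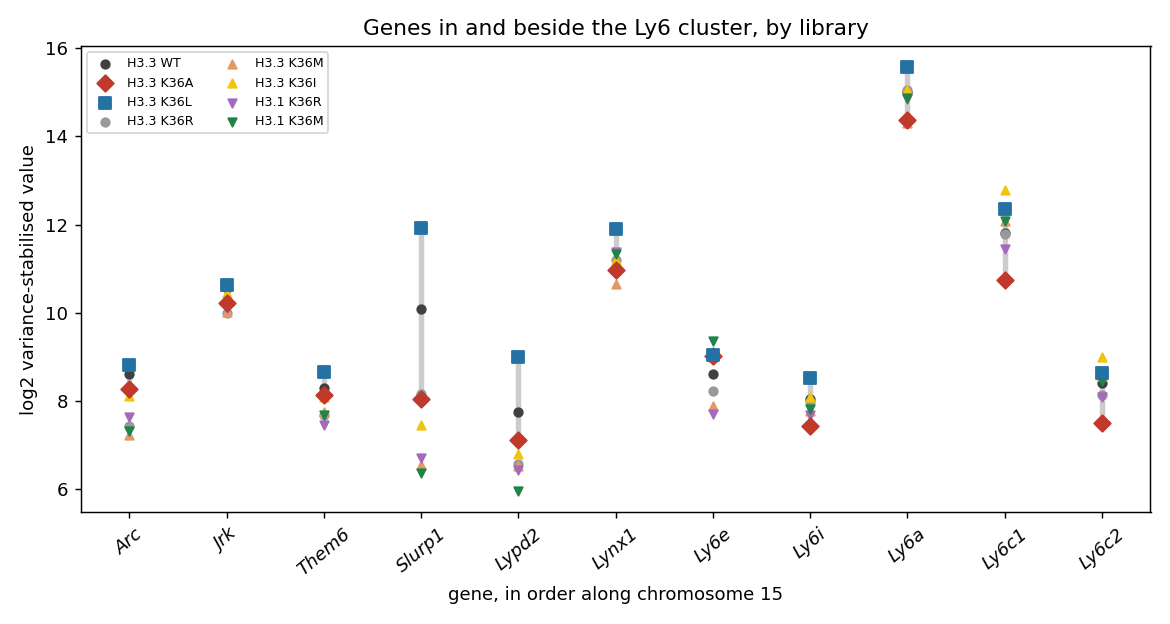
Log2 variance-stabilised value (vertical axis) of the 11 genes kept in and beside the Ly6 cluster that carry a gene name, in order along chromosome 15 (horizontal axis), in each of the 8 libraries, with a grey bar from K36A (red diamond) to K36L (blue square). K36L lies above K36A for every gene drawn, by 3.88 for Slurp1 and by 0.02 for Ly6e.

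Among the 15 genes furthest below 0 were several that act in signalling. Nov, a matricellular protein of the CCN family now named Ccn3, had 1243 normalised reads in K36A and 9229 in K36L, with 18570.3 in WT, 33943 in K36R, 3833 in K36M, 1569 in K36I, 11307 in H3.1 K36R and 2755 in H3.1 K36M. K36A was the lowest of 8, below K36M and K36I, while K36L lay between them and WT. Thbd, which encodes thrombomodulin, a receptor of the clotting system, had 1204 in K36A and 5302 in K36L (-2.03). Prex2, an exchange factor for the GTPase Rac, had 292 and 1999 (-2.38). Clic5, a chloride channel family protein tied to the actin cytoskeleton, had 19.2 in K36A and 1206 in K36L, with 716 in WT, 255 in K36R and 6.81 to 45.9 in the other 4.

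Genes of 3 WNT antagonists were lower in K36A. Of 10 WNT ligands, R-spondins and antagonists kept, 3 were lower by at least 1 and 0 higher (0.847% and 0.377% of all kept genes). The median was -0.15 (-0.27 on log2 of normalised reads plus 10). All 3 lower genes restrain WNT signalling: Sfrp1, a secreted decoy for WNT proteins, Sostdc1, an antagonist of WNT and BMP, and Notum, which removes the lipid that WNT proteins need. Sfrp1 had 70.9 normalised reads in K36A and 545 in K36L, with 142 in WT, 665 in K36R and 284 to 3173 in the other 4. Sostdc1 had 173 in K36L, 9.58 in K36A and 0 to 16.7 in the other 6. Frzb, another secreted WNT antagonist, lay on the other side at 0.88, under the threshold. Of 11 genes known to respond to WNT, 2 were lower (Notum at -1.30 and Tcf7, a transcription factor of the pathway, at -1.26), and their median was 0.07.

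In the insulin-like growth factor axis the ligand gene Igf1 (-1.33, 153 normalised reads in K36A and 542 in K36L) and the binding protein gene Igfbp4 (-1.12) were lower in K36A, and Pappa2, which encodes a protease that cleaves binding proteins, was higher (1.42). The other 11 of 14 genes kept from that list stayed under the threshold, and its median was 0.05. Epas1, the hypoxia-inducible factor HIF-2 alpha, had 329 normalised reads in K36A, 1647 in K36L, 1788 in WT, 1077 in K36R and 2875 in H3.1 K36R, and 8.59 to 13.1 in the libraries with K36M or K36I. K36L was level with WT and K36A lay below it. It was the only gene of 29 kept from the hypoxia and glycolysis list past the threshold, and the median of that list was 0.08. Of 16 oxidative stress genes, Aldh3a1 (-1.35) and Gsta1 (-1.22), enzymes that detoxify aldehydes and electrophiles, were lower by at least 1. Of the 16, 15 lay below 0, and the median was -0.18. Beside the counts of these lists, 0.847% of all kept genes were lower by at least 1 and 0.377% higher.

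Genes of the fat lineage split in direction. Of 16 kept, 2 were lower in K36A by at least 1 and 1 higher (0.847% and 0.377% of all kept genes). The median was -0.01. Lpl, the lipase that releases fatty acids from lipoproteins (chromosome 8, 68880491 to 68907448), had 53.6 normalised reads in K36A and 344 in K36L, with 375 to 1168 in the other 6. K36A was the lowest of 8, and the nearest other library was K36L. Zfp423, a transcription factor of preadipocytes, had 102 in K36A and 458 in K36L (-1.48). Dlk1, a surface protein of preadipocytes that restrains fat formation, had 159 in K36A and 17.5 in K36L, with 84.5 in K36R and 0 to 30.6 in the other 5. Of 9 osteogenic genes kept only Alpl, alkaline phosphatase, passed the threshold (-1.05).

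Imprinted genes, expressed from the copy of only the mother or the father, held 3 members higher in K36A among 25 kept (Mest at 1.42, Dlk1 at 1.36 and H19 at 1.34) and 1 lower (Dcn), with a median of 0.02. Of all kept genes 0.377% were higher and 0.847% lower. H19, a noncoding RNA, had 1696 normalised reads in K36A and 600.2 in K36L, with 217 in K36R, 145 in WT and 2.63 to 21.9 in the other 4. K36A was the highest of 8 and K36L the second highest. Its neighbour Igf2, imprinted in the opposite sense, differed by 0.02. An entry named AK145379 holds the same value as H19 in every library and counts beside it among the 53.

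The clustered protocadherins, adhesion molecules best known from neurons, were all higher in K36A, and 0 of 29 by at least 1. Their median difference was 0.57. The 16 genes of the gamma cluster kept had differences of 0.56 to 0.61. In K36A they had 5625 to 11188 reads, with a median of 5647. In K36L they had 3666 to 7164, with a median of 3690. The medians lay close to the lowest values, so many of the 16 had near-equal reads. The gamma genes share their last exons, so their values are close to a single measurement. The 13 beta genes, each with an exon of its own, ranged from 0.09 to 0.93, with Pcdhb11 the highest. The median gamma value was 12.43 in K36A, 12.31 in K36R, 12.45 in H3.1 K36R and 12.47 in H3.1 K36M, and 11.86 in K36L, 11.72 in WT, 11.73 in K36M and 11.86 in K36I. Pcdh9, a protocadherin gene outside these clusters, had 51.7 normalised reads in K36A and 749 in K36L, with 653 to 1972 in the other 6, so that K36A alone was low.

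None of the genes kept for enzymes that write or remove lysine 36 methylation, or for its readers, passed the threshold. The 10 methyltransferase genes ranged from -0.25 to 0.33, with a median of 0.08: Setd2 differed by -0.01, Nsd1 by 0.33, Whsc1 by 0.13, Whsc1l1 by -0.05 and Ash1l by 0.08. The 22 demethylases and readers had a median of 0.03 and ranged from -0.75 to 0.21. The lowest was Phf19, which binds the methylated residue and joins PRC2, with 847 normalised reads in K36A and 1499 in K36L. Of the PRC2 core, Ezh2 differed by 0.20, Eed by 0.16 and Suz12 by 0.21. The H3.3 genes H3f3a and H3f3b differed by 0.20 and -0.44, and whether reads of the transgene are among theirs was not tested. The 35 cell cycle genes had a median of -0.01 and 0 past the threshold. The 76 cytosolic ribosomal protein genes had a median of -0.11, with 66 of 76 below 0 and none past the threshold.

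No gene passed the threshold in the lists for smooth muscle (13 kept), skeletal muscle (7), basement membrane (16), cytokines and chemokines (16), interferon-stimulated genes (18), antigen presentation (13), Notch (14), Hedgehog (9), BMP and TGF-beta (21), FGF feedback (17), YAP and TEAD targets (19), cholesterol synthesis (23), the unfolded protein response (26), p53 targets (21), axon guidance (23), DNA methylation (12), demethylases and readers of lysine 36 (22), Polycomb complexes (30), histone H3 chaperones (14), replication-dependent histones (43), Schlafen genes (4) and proliferins (1). Cxcl12, a chemokine of stromal cells, came closest, at 0.99. In the other lists few genes passed it, where 0.377% of all kept genes were higher and 0.847% lower. The integrin gene Itgb6 (-1.39, 1 of 17 kept), the T-box gene Tbx2 (-1.76, 1 of 37 developmental transcription factors) and Ly6a (1 of 20 mesenchymal stromal markers) were lower. The immediate early gene Egr2 (1.11, 1 of 23) and the metalloproteinase gene Adamts6 (1.11, 1 of 18) were higher.

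**Figure D4:**
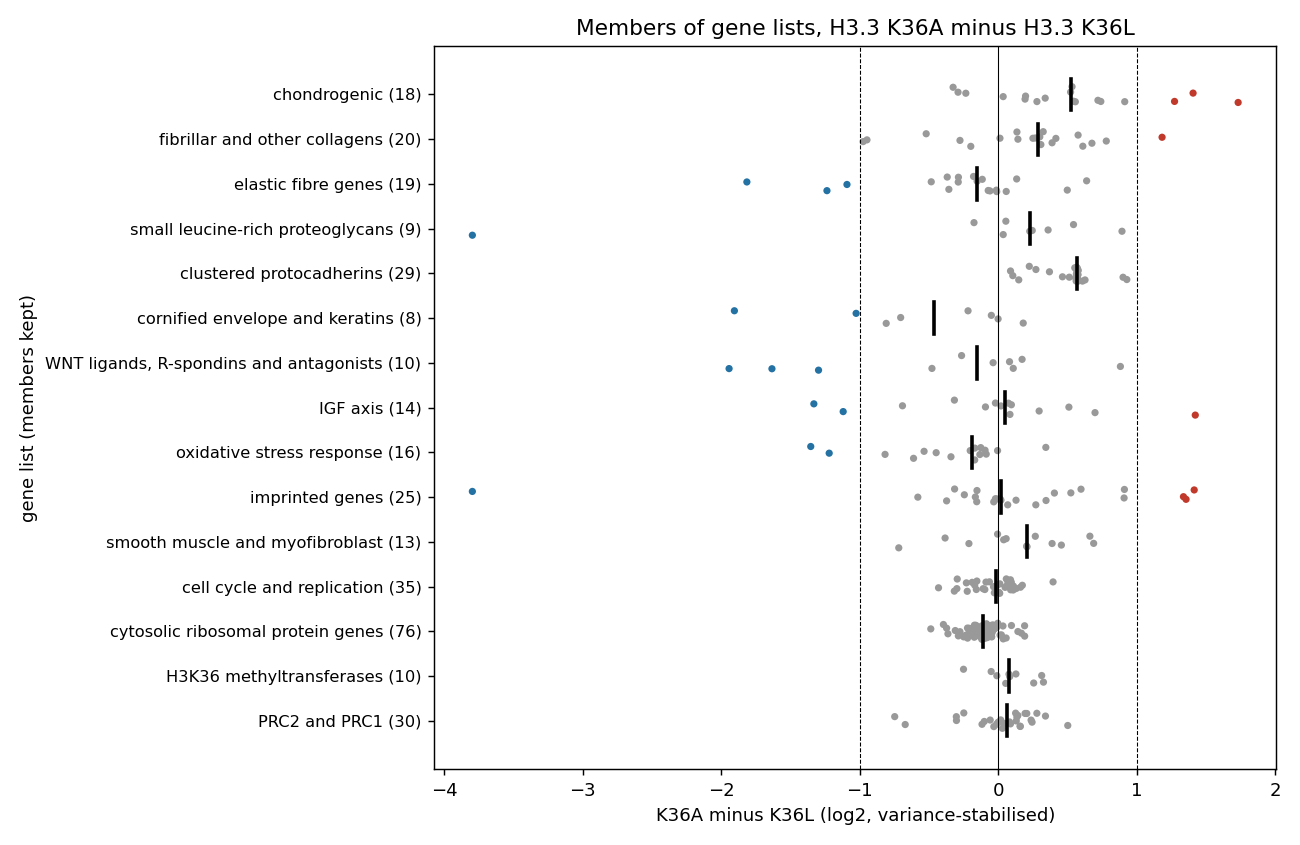
K36A minus K36L (horizontal axis, log2 variance-stabilised units) for each kept member of 15 gene lists (rows, with the number kept), with the list median as a black bar and dashed lines at 1 and -1. The chondrogenic median is 0.53 and that of the clustered protocadherins 0.57, the latter built largely on genes that share reads, while the keratin list has its median at -0.46 and the cell cycle genes gather at -0.01.

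The direction of a difference does not say which line departed, so both were set beside the mean of WT and K36R. Of the 53 genes higher in K36A, K36A alone was at least 1 from that mean in 23, K36L alone in 11, both in 8 and neither in 11. Of the 119 lower genes, the counts were 48, 19, 18 and 34. Over all kept genes, K36A was at least 1 from the mean in 2.03% and K36L in 1.35%. In 5 genes the substitutions departed to opposite sides, and these were Tmem47, Serpinb7, Slurp1, Clic5 and Serpinb11. Clic5, for example, stood at -2.37 from the mean in K36A and at 1.26 in K36L. WT and K36R are single libraries too, and they are 254 genes apart by the same count.

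The 53 and the 119 were chosen by a gap between K36A and K36L, which by itself raises the counts of extremes and of wide gaps among them, so nothing is read from these counts against the shares of all kept genes. K36A was the highest of 8 in 25 of the 53 genes (9.53% of all kept) and the lowest of 8 in 48 of the 119 (8.07% of all kept). K36L was the lowest in 10 of the 53 (8.94% of all kept) and the highest in 42 of the 119 (11.9% of all kept). K36A lay above all 7 other libraries by at least 1 in 14 genes (0.0997%) and below them in 3 (0.0214%), and K36L above them in 8 (0.057%). With the widest gaps, K36A stood alone for Acan (1.68), Rab11fip4 (1.47), Col9a1 (1.34), H19 (1.34) and Rxfp3 (1.25) on the high side and for Pcdh9 (-2.36) and Lpl (-1.59) on the low side. K36L stood alone on the high side for Krt14 (1.90), Slurp1 (1.82), Sostdc1 (1.45), Mal (1.36) and Serpinb11 (1.29). In 21 of the 53 and 35 of the 119 both values lay inside the range of the other 6 libraries (62.5% of all kept genes). In 46 of the 53 and 112 of the 119 the difference was larger in size than that between K36M and K36I and that between WT and K36R for the same gene (33.5% of all kept genes).

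Leucine resembles methionine and isoleucine in size, so the difference was set beside that of K36M and K36I, taken as their mean minus the mean of WT and K36R, which shares no library with it. Of the 119 genes lower in K36A, 47 (39.5%) were also lower in K36M and K36I by at least 1 and 8 (6.72%) were higher, where of all kept genes 4.06% were lower and 2.80% higher. The 47 are 8.25% of the 570 genes lower in K36M and K36I. Of the 53 genes higher in K36A, 14 (26.4%) were higher in K36M and K36I and 15 (28.3%) lower. The shares were thus above those of all kept genes in both directions, for the 119 and for the 53. How far choosing genes by a gap raises them was not tested. K36A was nearer than K36L to the mean of K36M and K36I in 79 of the 119 (66.4%) and 20 of the 53 (37.7%), against 53.5% of all kept genes. Nearness uses the same K36A and K36L values that chose the 119 and the 53, so nothing is read from these shares. The median K36M and K36I difference was below 0 in both sets, at -0.65 in the 119 and -0.43 in the 53.

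Members of the 47 include Eln (-6.68 in K36M and K36I), Colec10, a soluble lectin (-4.95), Gas7 (-4.69), Epas1 (-4.03), Prex2 (-3.94), Igf1 (-3.36), Nov (-3.29) and Dcn (-2.27). For Prex2 the values were 8.67 in K36A and 11.05 in K36L, with 7.99 in K36M, 7.51 in K36I, 11.32 in WT and 12.08 in K36R. The 8 genes lower in K36A but higher in K36M and K36I were Msln, Ppef1, Efemp1, Igfbp4, Notum, Aldh3a1, Ampd3 and Krt80. Msln, the mesothelial surface protein mesothelin, had 364 normalised reads in K36A and 1382 in K36L against 12955 in K36M and 9653 in K36I. With H3.1 K36M minus H3.1 K36R in place of these libraries, 24 of the 119 were lower (3.1% of all kept genes) and 17 higher (3.42%), and of the 53, 12 were higher and 14 lower. Across all 14047 genes Pearson r for K36M and K36I was 0.14 and Spearman rho 0.11, given as a description only, since genes are not replicates.

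**Figure D5:**
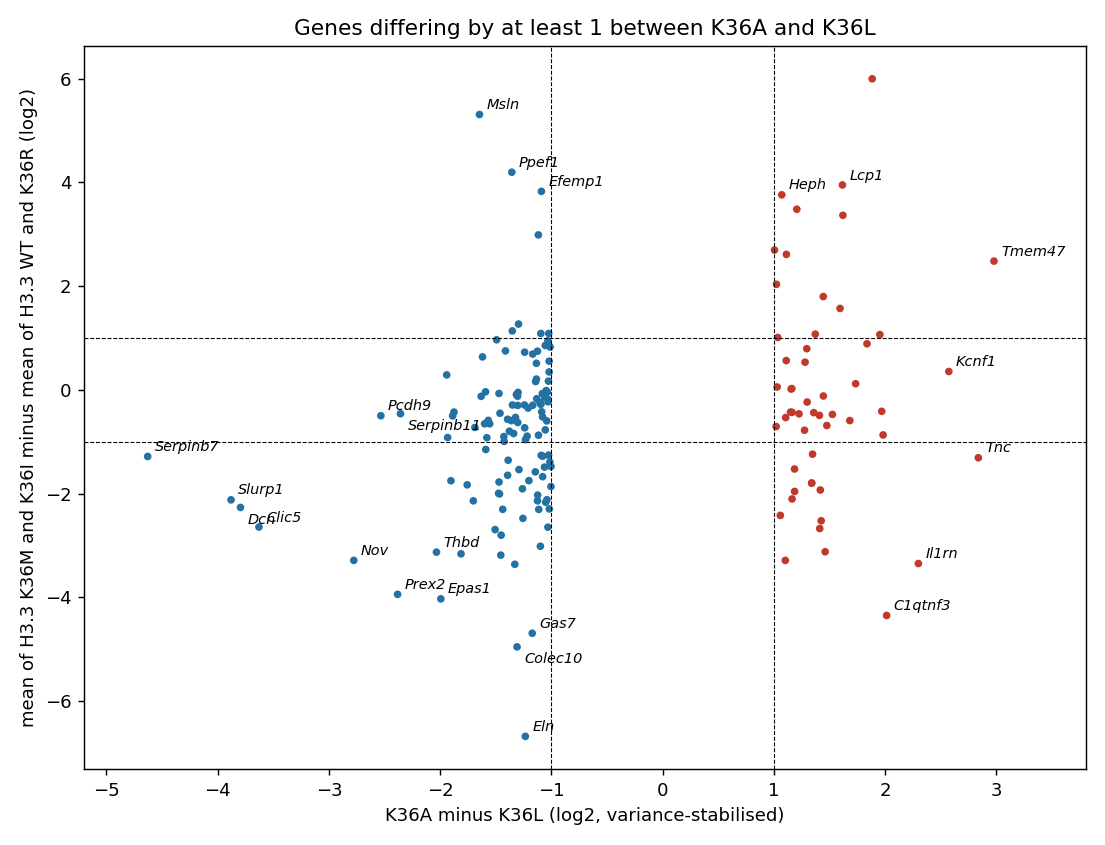
Mean of K36M and K36I minus mean of WT and K36R (vertical axis, log2 units) against K36A minus K36L (horizontal axis, log2 units) for the 172 genes that differ by at least 1, with dashed lines at 1 and -1. Of the 119 genes on the left 47 lie below -1 and 8 above 1, and the 53 genes on the right are spread to both sides, 14 above 1 and 15 below -1.

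The cells kept the mark of their lineage in both libraries. All 12 mesenchymal markers passed the filter, and their summed level was 951316 normalised reads in K36A and 950160 in K36L. Vim had 302757 and 279894, Col1a1 50033 and 40572, and Prrx1 25292 and 24077. Of the 12, 7 lay above 0 and 5 below. Dcn was the only 1 past the threshold, and Col3a1, with 97515 and 191646, lay just under it at -0.97. Of 15 leukocyte markers found, 5 passed the filter. Lcp1, an actin bundler of blood cells, was the only 1 past the threshold, with 551 in K36A and 112 in K36L. Of the 5, 2 lay above 0 and 3 below, and the median was -0.19. Cd53 had 58.4 in K36A and 77.9 in K36L, Cd68 112 and 149, and Cd14 218 and 298. Ptprc had 0 reads in K36A and 3.90 normalised reads in K36L, and Cd3e had 0 in all 8. Of 12 endothelial markers 5 passed the filter, and the receptor gene Tek (1.06) and the transcription factor gene Erg (1.16) were higher in K36A. The other 3 lay below 0 and under the threshold, among them Vwf with 108 and 243 and Flt1 with 2662 and 3137. Pecam1 had 5.75 in K36A and 20.5 in K36L, and Cldn5 and Sox17 had 0 in both. Of 12 neural and glial markers 3 passed the filter and 0 the threshold, with a median of -0.54. Tubb3, a tubulin of neurons, had 2165 in K36A and 3518 in K36L, and Snap25, Syt1, Nefl and Nefm had 0 in both.

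Some of the different genes lay close together. Within 500000 bases of each other lay 25 pairs of named different genes, 22 with the same direction and 3 with opposite directions. Of the 25, 15 lay within the Ly6 cluster, and of all pairs of kept genes at that distance 57.6% shared a sign. Outside the cluster, C1qtnf3 and Rxfp3, a relaxin family receptor gene, lay 53567 bases apart and were both higher in K36A (2.01 and 1.30). Tnc and Tnfsf15, 214672 bases apart, had opposite directions (2.84 and -1.93).

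Start sites of many of the different genes were poor in CG dinucleotides. RefSeq windows of 300 bases on GRCm38.p6 matched 9914 of the kept genes, 35 of those higher and 70 of those lower in K36A. The ratio of observed to expected CG was under 0.5 in 22 of the 35 (62.9%) and 37 of the 70 (52.9%), against 20.2% of all matched. Among genes with a mean log2 value of at least 9 the shares were 62.5%, 39.4% and 13.7%, and among those under 9, which held 19 of the 35 and 37 of the 70, they were 63.2%, 64.9% and 44.2%. TATAAA, on either strand, lay in 17.1% of the higher, 18.6% of the lower and 8.55% of all matched genes. TGANTCA lay in 5.71%, 11.4% and 6.18%, and AACAAT, the core of the Sox motif, in 17.1%, 12.9% and 7.01%. A match says only that the letters are there.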

How the data were processed

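RNA of the 8 lines was extracted with Trizol and made into Illumina TruSeq libraries, per the labels' protocols. Per the submitters' processing notes, Trimmomatic 0.32, STAR 2.3.0e, featureCounts 1.4.4, DESeq2 (no version) and the build mm10 were used. No label or header gives their order or settings, the annotation or the use of strand (not given in the sources used here). As deposited by the authors, the table holds log2 values from a variance-stabilising transformation. It was applied to gene-level reads scaled by each library's size factor, and gene length was not corrected for.

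K36L was subtracted from K36A for genes whose mean over both was at least 1 above the lowest value. Inverting the transformation gave whole reads for 100% of values, within 0.001 reads, and from these the depths, ratios and 95% counting intervals were computed (Python 3.11.15, numpy 2.4.6, pandas 2.3.3, scipy 1.17.1). A 0 was set to 6 reads (3 pairs) for a bound, and the limits cover counting error only. The steps were tested on simulated data. The labels carry no replicate, so differences of at least 1 were counted without a test.

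Gene lists (48, with 5 sets of cell type markers, 1226 of 1250 genes found) and the comparison itself were chosen with earlier results of these data known. A list of 15 mitochondrial transcripts had 0 members in the table. Named were the 15 highest and 15 lowest differences, the 5 genes each way for which K36A, and likewise K36L, stood furthest from the 7 others, up to 4 different members of each list (or its largest), and 10 histone and methyltransferase genes. Predicted, clone-named and small RNA genes were left out. Further genes, among them those near the threshold, beside K36M and K36I, in the Ly6 cluster and in the marker sets, and the promoters shown, were chosen after their values were seen. GENCODE M21 gave coordinates by symbol for 12779 of 14047 genes, and RefSeq promoters came with GRCm38.p6.

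Alternatives were another filter, none, a median of 0, 2 logarithmic scales of the reads, leaving out overlapping genes, and other reference libraries.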

Additional observations from a re-analysis of the deposited data

How the results depend on the processing

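The number of different genes depended on the scale. On log2 of normalised reads plus 1 it was 491, with 139 higher and 352 lower in K36A, and on log2 of normalised reads plus 10 it was 406, with 113 higher and 293 lower. All 172 genes counted were also counted on both scales, which do not shrink genes with few reads as the deposited one does. Both scales widen nearly all differences relative to the deposited one, so this follows from the scales and nothing is read from it. A stricter filter (a mean of at least 2 above the lowest value) gave 134 genes, no filter 182, a median set to 0 gave 172, and leaving out genes that overlap another on the opposite strand gave 132. Setting the median to 0 shifted every value by only 5.94e-05, so counts, signs and list medians could hardly change. On log2 of normalised reads plus 1 no named gene changed sign. That was fixed in advance, because this scale and the deposited one rise with the same normalised reads. Of 104 alternative list medians 5 moved, all away from 0 on the scale of reads plus 10: keratins from -0.46 to -0.76, WNT ligands and antagonists from -0.15 to -0.27, integrins to -0.24, leukocyte markers to -0.36, and neural and glial markers to -0.70. With H3.1 K36M minus H3.1 K36R in place of the H3.3 libraries, 24 of the 119 genes lower in K36A were lower and 17 higher, where 3.1% and 3.42% of all kept genes were lower and higher, and the cause was not tested. Chosen after seeing the data, K36M alone gave 51 lower and 7 higher, K36I alone 50 and 9, and WT or K36R alone as the reference 56 and 8 or 49 and 9. No paired analysis was possible because the labels give 1 library per transgene and no replicate numbers, and for the same reason no replicate could be left out.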
